A study of Mus musculus with 4 samples.

Results

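The loci of 7 genes that steer lymphocytes into, within and out of lymph nodes (LNs) were examined for chromatin accessibility in LN regulatory T (Treg) cells: Ccr7, S1pr1, S1pr4, Cd69, Cd44, Itgae and Itga4. The members are all open chromatin regions (OCRs) that overlapped one of these genes or the 20 kb on either side of it, which gave 104 OCRs of 272233 in the whole series. An OCR here is a merged peak of any library, without the study's filter for peaks that reproduce between replicates. The assay, ATAC-seq, uses a transposase that cuts accessible DNA and leaves sequencing adapters there, so that reads gather over open sites. The 4 libraries came from Foxp3-RFP+ CD4+ Treg cells sorted from the LNs of naive C57BL/6 females aged 6 to 8 weeks, 50000 cells per library, with 2 wild type (WT) and 2 Il2ramut/mut libraries. All mice carried the Foxp3-RFP reporter. Il2ramut/mut mice bear a point mutation in Il2ra, the gene of the IL-2 receptor chain CD25, that lowers CD25 at the cell surface and the response to IL-2. The mutation is carried by every cell of the animal and not by Treg cells alone.

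T cells enter LNs from the blood by slowing on the vessel wall, arrest through chemokine receptors and integrins, and leave through S1P receptors that sense the high sphingosine-1-phosphate of lymph. CCR7 binds the chemokines CCL19 and CCL21 and guides T cells into the LN and its T zone. S1PR1 drives egress, and CD69, induced on activated cells, binds S1PR1 and removes it from the surface. CD44 binds hyaluronan and marks activated and memory cells. Itgae encodes CD103, an integrin chain that holds cells at epithelia through E-cadherin, and Itga4 encodes the alpha 4 chain, whose partners beta 1 and beta 7 bind VCAM-1 and MAdCAM-1. These loci matter for Treg cells because the ones that recirculate through LNs express CCR7 and S1PR1, while activated ones express more CD44 and CD103.

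OCRs are named here by gene and by the distance of their summit from the annotated transcription start site (TSS) in the direction of transcription, so that a minus sign stands for upstream. The following stretches of 200 bases around the summit show the OCRs of Ccr7, S1pr1 and S1pr4 that were listed in 1 genotype only and the OCRs with the lowest and the highest difference between genotypes, at Ccr7 -15.98 kb and Itga4 +4.07 kb. The Ccr7 promoter and the strongest distal OCRs of S1pr1 and Cd69 stand beside them. They are printed 5′ to 3′ on the plus strand of GRCm38 (mm10), read from the RefSeq assembly, and capitals mark matches on either strand to fixed words of transcription factor families.
Ccr7 -0.09 kb, chr11:99155069-99155268: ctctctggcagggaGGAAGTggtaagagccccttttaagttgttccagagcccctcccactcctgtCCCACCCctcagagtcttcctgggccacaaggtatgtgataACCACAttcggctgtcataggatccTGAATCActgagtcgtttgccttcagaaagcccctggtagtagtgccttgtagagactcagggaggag
Ccr7 -15.98 kb, chr11:99170959-99171158: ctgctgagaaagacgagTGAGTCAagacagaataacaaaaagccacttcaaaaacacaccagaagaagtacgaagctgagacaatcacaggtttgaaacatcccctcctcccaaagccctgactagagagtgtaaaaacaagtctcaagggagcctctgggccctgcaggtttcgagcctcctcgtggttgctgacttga
Ccr7 +23.54 kb, chr11:99131439-99131638: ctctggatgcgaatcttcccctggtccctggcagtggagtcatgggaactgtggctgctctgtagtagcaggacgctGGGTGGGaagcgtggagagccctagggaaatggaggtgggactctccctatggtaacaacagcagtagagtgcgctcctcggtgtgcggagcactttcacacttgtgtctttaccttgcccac
Ccr7 -16.60 kb, chr11:99171581-99171780: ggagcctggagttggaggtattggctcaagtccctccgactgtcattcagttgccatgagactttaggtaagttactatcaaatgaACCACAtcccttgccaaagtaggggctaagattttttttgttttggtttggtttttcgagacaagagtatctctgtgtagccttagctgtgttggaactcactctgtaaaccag
S1pr1 -14.25 kb, chr3:115729222-115729421: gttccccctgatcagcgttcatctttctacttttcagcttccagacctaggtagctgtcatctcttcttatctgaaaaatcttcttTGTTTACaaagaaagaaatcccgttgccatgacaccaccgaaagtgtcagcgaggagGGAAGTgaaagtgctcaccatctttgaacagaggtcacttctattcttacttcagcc
S1pr1 -19.93 kb, chr3:115734901-115735100: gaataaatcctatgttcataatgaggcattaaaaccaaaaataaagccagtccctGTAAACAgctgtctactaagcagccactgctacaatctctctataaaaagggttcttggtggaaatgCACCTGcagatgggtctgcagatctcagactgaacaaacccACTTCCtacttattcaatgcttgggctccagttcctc
S1pr1 +22.55 kb, chr3:115692420-115692619: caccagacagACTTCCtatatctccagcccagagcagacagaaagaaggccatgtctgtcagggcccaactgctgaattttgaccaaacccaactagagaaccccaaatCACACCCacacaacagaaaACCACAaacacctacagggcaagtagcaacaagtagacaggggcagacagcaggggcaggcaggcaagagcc
S1pr4 -5.36 kb, chr10:81505393-81505592: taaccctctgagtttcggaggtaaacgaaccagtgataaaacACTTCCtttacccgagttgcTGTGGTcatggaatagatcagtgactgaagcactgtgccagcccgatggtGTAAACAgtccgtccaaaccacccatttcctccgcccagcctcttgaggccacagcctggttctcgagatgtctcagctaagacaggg
Cd69 -9.13 kb, chr6:129284464-129284663: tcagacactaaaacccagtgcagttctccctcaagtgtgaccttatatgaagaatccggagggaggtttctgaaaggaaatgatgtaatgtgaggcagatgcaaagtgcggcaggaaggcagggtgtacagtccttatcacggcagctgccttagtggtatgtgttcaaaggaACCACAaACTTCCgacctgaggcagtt
Itga4 +4.07 kb, chr2:79259467-79259666: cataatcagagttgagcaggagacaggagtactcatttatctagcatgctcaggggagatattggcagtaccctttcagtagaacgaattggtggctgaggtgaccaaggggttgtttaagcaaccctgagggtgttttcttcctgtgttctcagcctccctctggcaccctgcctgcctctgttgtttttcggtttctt

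The lists held 112569 and 126761 peaks in the WT libraries 1 and 2 and 122776 and 142732 in the Il2ramut/mut libraries 1 and 2. Of these, 27 and 30 in WT and 37 and 34 in Il2ramut/mut lay on chromosome Y, and their source was not tested. Totals of reads are not listed, and the depth is unknown. Each fold enrichment came out as a whole number of summit reads, within a tolerance of 0.05 reads, over 1 background per library of 0.974 to 1.23 reads, with 1 read added to both, and the lowest peak of a library held 5 or 6 reads. A site with no listed peak may therefore still be open below this level. Promoters of 7 of 7 T and Treg cell genes, Foxp3 and Ctla4 among them, had an OCR in all 4 libraries. Of 16 genes that mark other cells, 12 had no peak at the promoter in any library, among them the B cell genes Cd79a and Ms4a1, Cd8a of CD8+ T cells and the myeloid genes Csf1r and Lyz2. The other 4 (Pax5, Cd8b1, Col1a1 and Pecam1) had one in all 4 libraries.

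The 7 loci were rich in OCRs. Of the 104 OCRs, 47 were called in all 4 libraries (45.2%), beside 14.1% of all OCRs of the genome and 19.1% of those within 20 kb of any protein-coding gene. Another 14 were called in 3 libraries, 24 in 2 and 19 in 1. OCRs called in 1 library made up 18.3% of the members and 61.3% of the genome. The median of the loci was 2.08 OCRs per 10 kb, against 0.619 over 21938 protein-coding genes. Ccr7 was the densest with 25 OCRs in 50.9 kb, at percentile 98 of all genes, and at percentile 99.8 when only OCRs called in all 4 libraries were counted. S1pr1 (14 OCRs, percentile 96.5), S1pr4 (11 OCRs, 95.3) and Cd69 (10 OCRs, 92.5) followed. Itgae (16 OCRs, percentile 88) and Cd44 (18 OCRs, 82.8) had more sites spread over longer genes, and Itga4 was the sparsest with 10 OCRs in 118 kb, at percentile 64.1. Of the 104 OCRs, 12 lay within 1 kb of the TSS of their gene, 36 in introns, 4 in exons, 27 upstream and 25 downstream, and an OCR is given to a gene by distance alone.

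**Figure D1:**
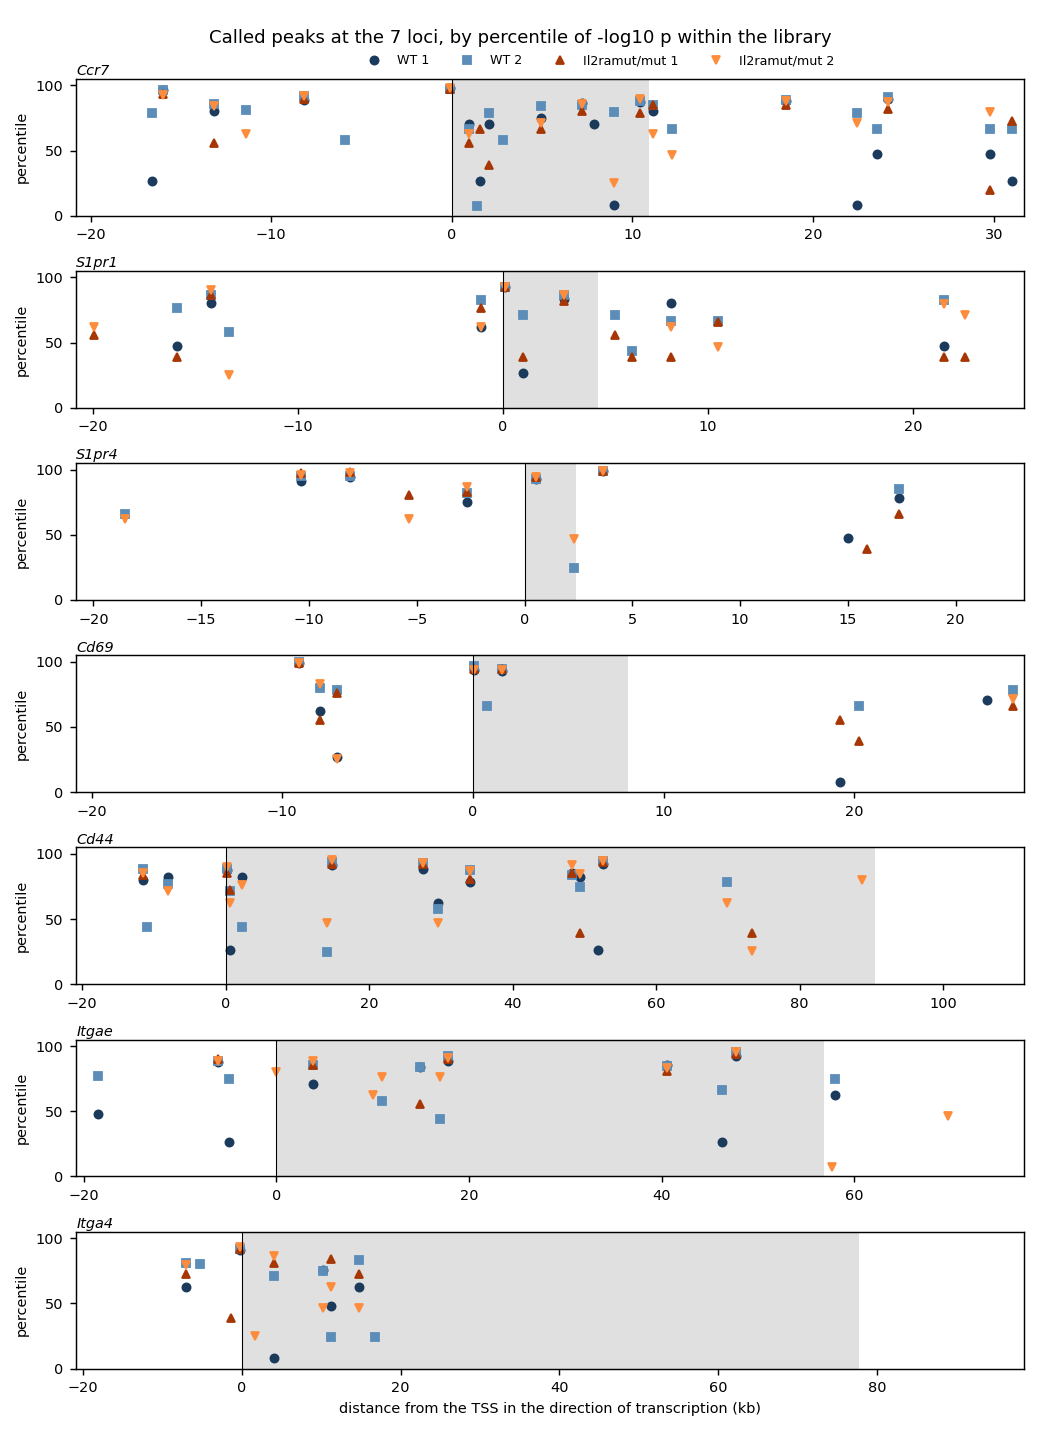
Each panel shows the called peaks of 1 locus. The x axis is the distance from the TSS in kb, the y axis the percentile of the peak's −log10 p among all peaks of its library, the grey band the gene body and each marker 1 library. At Ccr7, markers of all 4 libraries recur on both sides of the gene and within it, whereas at Itga4 they end near the start of the long gene.

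Promoters of 6 of the 7 genes had an OCR in all 4 libraries, and that of Itgae did not. Of 21853 protein-coding genes with a TSS, 52.2% had such an OCR. A promoter OCR here lies within 1 kb of a TSS. When it had to overlap the TSS itself, 5 of the 7 genes had one, as that of S1pr4 lay 148 bp away. The Ccr7 promoter (chr11:99154826-99155546) stood highest, with fold enrichments over the background of 37 and 42.9 in WT and 33.6 and 38.9 in Il2ramut/mut. These are the ratios that the peak caller gave, of the reads at the summit to the background of the library with 1 read added to both, and they place it between percentiles 97 and 98 of all peaks of each library. The genotypes overlapped, and the difference, Il2ramut/mut minus WT on the log2 scale, was -0.13 ± 0.15 (SE, n = 2 libraries per genotype).

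The S1pr1 promoter (chr3:115714573-115715781) reached 17.2 and 22.7 in WT and 18.8 and 16.5 in Il2ramut/mut, and its percentiles, 92.8 to 92.9, hardly varied between libraries. S1pr4, which encodes a related S1P receptor of lymphocytes, had 16.7 and 22.7 in WT and 21.5 and 20.9 in Il2ramut/mut at its promoter (chr10:81498628-81499984). Fold enrichments overlapped between genotypes at the promoters of both S1P receptors, while the percentiles of the S1pr4 promoter, 92.5 and 92.8 in WT and 94 and 94.5 in Il2ramut/mut, did not.

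At Cd69, the promoter (chr6:129274970-129276256) gave 18.2 and 40.4 in WT and 22.9 and 19.4 in Il2ramut/mut. The WT libraries differed more from each other there than the genotypes did, with a difference of -0.33 ± 0.24 that was -0.01 without WT 2 and -0.65 without WT 1. The Cd44 promoter (chr2:102901109-102901812) was lower, with 11.1 and 14.1 in WT and 9.42 and 11.7 in Il2ramut/mut. The Itga4 promoter (chr2:79254507-79256110) had 14.7 and 20.7 in WT and 16.1 and 17.5 in Il2ramut/mut, with nearly equal means. At Itgae, a peak at the promoter (chr11:73090380-73090634) was listed in 1 library only, Il2ramut/mut 2, with 12 reads at its summit. None of the 6 promoter OCRs differed between genotypes in limma's test, in which the highest and lowest differences were 0.17 ± 0.16 at S1pr4 and -0.33 ± 0.24 at Cd69.

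**Figure D2:**
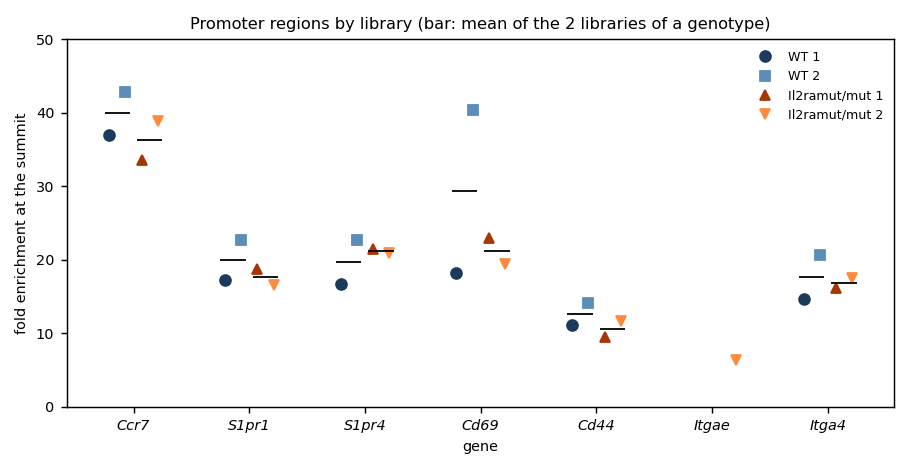
Fold enrichment at the summit of the promoter OCR (y axis, starting at 0) for each gene (x axis) in each library, with a black bar for the mean of the 2 libraries of a genotype. The Ccr7 promoter is highest, between 33.6 and 42.9, the WT libraries of Cd69 lie far apart at 18.2 and 40.4, and Itgae has a value in Il2ramut/mut 2 only.

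The strongest OCRs away from the promoters exceeded them at Cd69, S1pr4, Cd44 and Itgae. The OCR of Cd69 at -9.13 kb (chr6:129284193-129285134) had fold enrichments of 53.2 and 81.8 in WT and 65.5 and 57.8 in Il2ramut/mut, at percentiles 99.1 to 99.5 of all peaks. It was higher than the Cd69 promoter in each library, and a further OCR in intron 1 at +1.53 kb ranked at percentiles 92.8 to 94.6. At S1pr4, the strongest OCR (+3.64 kb, chr10:81495750-81497017) covered the promoter of the neighbouring gene Ncln and gave 53.2 and 69.2 in WT and 63.7 and 59.3 in Il2ramut/mut. At Itgae, the strongest OCR lay in intron 26 (+47.77 kb, chr11:73137471-73138724) at the promoter of Haspin, a gene nested in that intron, with 16.2 and 31.3 in WT and 21.1 and 22.8 in Il2ramut/mut. None of the 5 Itgae OCRs called in all 4 libraries lay at the promoter of Itgae itself.

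Cd44 carried its strongest OCR in intron 5 (+52.55 kb, chr2:102848875-102849448), with 16.2 and 26.8 in WT and 20.6 and 20.9 in Il2ramut/mut. Intron 1 of Cd44 held 3 more OCRs called in all 4 libraries beyond its first 1 kb, at +14.85, +27.50 and +34.03 kb. S1pr1 was flanked by an upstream OCR at -14.25 kb (chr3:115728923-115729963), with 7.09 and 12.1 in WT and 9.87 and 12.6 in Il2ramut/mut. At Itga4 the distal OCR with the highest mean percentile over the 4 libraries (-7.04 kb, chr2:79248275-79248708) ranked at percentiles 62.4 to 81, and in both Il2ramut/mut libraries the OCR at +4.07 kb ranked higher. Fold enrichments overlapped between genotypes at these distal OCRs of the 6 genes, and the log2 differences ranged from -0.11 ± 0.12 (Cd69) to 0.38 ± 0.25 (S1pr1).

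Whether reduced IL-2 signals go with a different set of accessible sites was asked first by presence of peaks. Of the 104 OCRs, 6 had a peak in both WT libraries and in neither Il2ramut/mut library (5.77%; 2.7% of all OCRs, and 2.89% of those within 20 kb of protein-coding genes). They lay at Ccr7 (2) and Itgae (4). Another 4 had a peak in both Il2ramut/mut libraries and in neither WT library (3.85%; 3.56% of all OCRs), at S1pr1 (2), S1pr4 (1) and Cd44 (1). All 10 held 7 to 15 reads at the summit in each library that listed them. A site with a lower fold enrichment may be open in fewer of the sorted cells or less open in each of them, which these bulk libraries cannot tell apart.

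At Ccr7, the WT OCR at +23.54 kb (chr11:99131346-99131795) held 8 and 10 reads at its summit, and that at -16.60 kb (chr11:99171534-99171801) held 7 and 14. Each lay beside a stronger OCR called in all 4 libraries, at +24.16 and -15.98 kb. The 4 WT OCRs of Itgae at -18.53, -4.95, +46.28 and +58.04 kb held 7 to 13 reads. The first pair lay inside the upstream gene Ncbp3 and the OCR at +46.28 kb inside Haspin.

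The Il2ramut/mut OCRs of S1pr1 lay at the edges of its window, at -19.93 kb (chr3:115734899-115735231) with 10 and 9 reads and at +22.55 kb (chr3:115692377-115692746) with 9 and 10. At S1pr4, the OCR at -5.36 kb (chr10:81505229-81505613) held 15 and 9 reads and lay inside Gna15, the gene of a G protein alpha subunit. That of Cd44 at +73.31 kb in intron 11 (chr2:102828174-102828373) held 9 and 7. The lowest listed peak of a library held 5 or 6 reads, so these OCRs stood close to the limit of calling.

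OCRs called in all 4 libraries were then compared by the percentile of their −log10 p within each library. Both WT percentiles exceeded both Il2ramut/mut percentiles at 7 of the 47 OCRs, and the reverse held at 9, whereas 12.6% and 26.2% of the 38426 such OCRs of the genome did so. With equal numbers of peaks per library the shares of the genome were 11.9% and 27.2%. Percentiles were still ranked within the full lists there, so this setting cannot show whether the lengths of the lists matter. With percentiles taken among the OCRs called in all 4 libraries alone, an alternative chosen after seeing the data, the counts were 10 and 7, beside 19.4% and 20.4% of the genome. The counts over the 7 loci lie near these shares of the genome.

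By locus the counts varied, beside 12.6% of the genome higher in WT and 26.2% higher in Il2ramut/mut. Ccr7 had 5 of its 12 OCRs higher in WT and 0 higher in Il2ramut/mut, and S1pr4 had 0 and 4 of its 5. S1pr1 had 1 and 0 of 6, Cd69 0 and 0 of 5, Cd44 0 and 1 of 9, Itgae 1 and 2 of 5 and Itga4 0 and 2 of 5. With 2 libraries against 2, an exact two-sided permutation test of 1 OCR cannot give a p below 1 in 3, so no single OCR can pass it, and the differences between loci were not tested.

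The sizes of the differences were estimated by limma on log2 fold enrichments, over 38426 OCRs called in all 4 libraries. No OCR of the 47, and none of the genome (0%), passed an adjusted p of 0.05, and the lowest adjusted p was 0.582 for both. Without adjustment, 4.37% of the genome had a limma p under 0.05 with lower and 4.18% with higher values in Il2ramut/mut, and 2 of the 47 OCRs did so in each direction. The median difference of the 47 OCRs was -0.11, and 29 of them were lower in Il2ramut/mut (61.7%, beside 49.4% of the genome, whose median was 0.00). Of all OCRs fitted, 90% lay between -0.53 and 0.52.

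At Ccr7, 11 of the 12 OCRs were lower in Il2ramut/mut, with a median difference of -0.39. OCRs of 1 locus share their cells and libraries and are not replicates of each other, and Ccr7 is singled out here after its values were seen. The upstream OCR at -15.98 kb (chr11:99170491-99171419) had fold enrichments of 26.3 and 37.9 in WT and of 19.7 and 15.6 in Il2ramut/mut, so that both mutant libraries lay below both WT libraries. Its difference was -0.81 ± 0.18, with an unadjusted p of 0.00316 and an adjusted p of 0.582 in limma. This call depended on the scaling, since with median centring in place of quantile normalisation the adjusted p was 0.0202. In that limma fit the lowest adjusted p of the genome was 2.7e-18 on 2 libraries per genotype, a value whose cause was not tested.

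The downstream Ccr7 OCR at +24.16 kb (chr11:99130656-99131199) behaved alike, with 12.7 and 18.2 in WT and 7.63 and 9.23 in Il2ramut/mut. Its difference was -0.78 ± 0.22 (unadjusted p = 0.0114, adjusted p = 0.582, limma). In intron 1, the OCR at +4.91 kb (chr11:99149888-99150891) had 6.08 and 10.1 in WT and 5.38 and 5.35 in Il2ramut/mut, a difference of -10.7 percentile points between the genotype means. Its log2 difference, -0.45 ± 0.25, was -0.69 without WT 1 and -0.24 without WT 2. The exception was the most distant fitted OCR, at +29.82 kb, with 4.56 and 5.56 in WT and 4.04 and 6.32 in Il2ramut/mut. The Ccr7 promoter itself overlapped between genotypes, as given above.

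**Figure D3:**
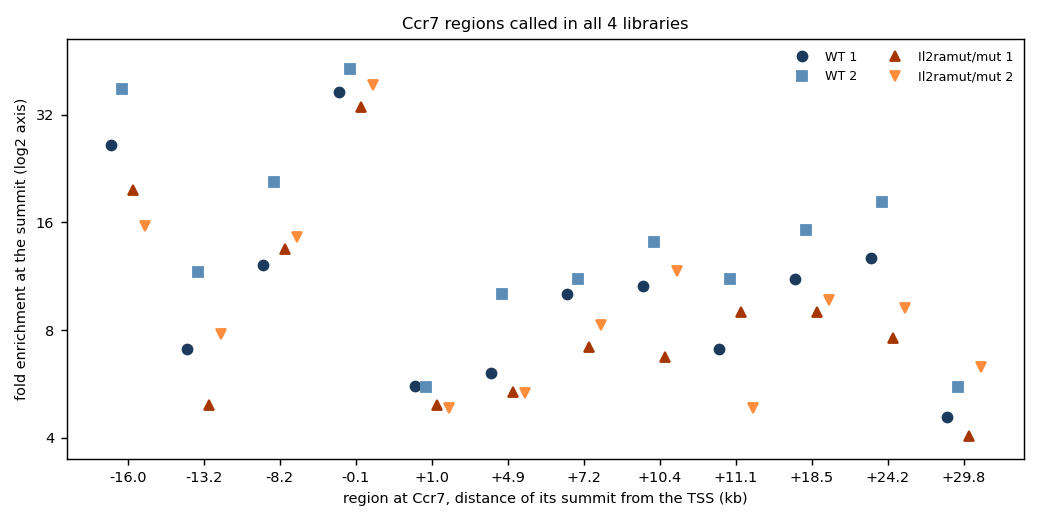
Fold enrichment at the summit (y axis, log2 scale) of the 12 Ccr7 OCRs called in all 4 libraries, ordered from upstream to downstream by the distance from the TSS in kb (x axis), with 1 marker per library. At -16.0 and +24.2 kb both Il2ramut/mut markers lie below both WT markers, while at the promoter (-0.1 kb) and at +29.8 kb they overlap.

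S1pr4 stood on the other side, with 5 of 5 OCRs higher in Il2ramut/mut, the one at +3.64 kb by 0.01 only, and a median difference of 0.31. Without WT 2 or without Il2ramut/mut 1, 1 of 5 was lower, and without Il2ramut/mut 2, 1 of 6 was. The OCR at -8.09 kb (chr10:81507729-81508541) had 21.3 and 30.8 in WT and 39.9 and 32.1 in Il2ramut/mut, a difference of 0.51 ± 0.17 (unadjusted p = 0.02, adjusted p = 0.582, limma) that was 0.33 without Il2ramut/mut 1. That at -10.36 kb had 15.2 and 30.3 in WT and 35 and 24.8 in Il2ramut/mut, which overlap, whereas its percentiles did not (91.5 and 95.2 against 97.2 and 95.7). These OCRs at -8.09 and -10.36 kb and that at -2.66 kb lay within the body of Gna15, and that at +3.64 kb covered the Ncln promoter. These data do not assign them to any of these genes.

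The other S1P receptor, S1pr1, had a median of -0.20 over 6 OCRs, 5 of them lower in Il2ramut/mut and 1 higher. Without WT 2 the median of S1pr1 was -0.05, with 3 OCRs lower and 3 higher. Its OCR at +8.21 kb (chr3:115706403-115707084) had 7.09 and 5.56 in WT and 4.49 and 4.86 in Il2ramut/mut, with a difference of -0.50 ± 0.27 that was -0.21 without WT 1 and -0.72 without WT 2. In reads these were 13 and 10 against 9 and 9.

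Cd69 and Cd44 had medians of -0.02 and 0.04, over 5 and 9 OCRs, and no OCR of theirs fell below an unadjusted p of 0.05. All 5 OCRs of Cd69 were lower in Il2ramut/mut. Without WT 2, 3 of 6 were higher, and without Il2ramut/mut 2, 3 of 5 were. Itgae had a median of 0.00 over 5 OCRs. The integrin gene Itga4 held the highest difference of all 47 OCRs, in intron 2 at +4.07 kb (chr2:79259352-79260295), with 3.55 and 6.06 in WT and 7.18 and 8.75 in Il2ramut/mut. Both mutant libraries lay above both WT libraries, and the difference was 0.87 ± 0.29 (unadjusted p = 0.0203, adjusted p = 0.582, limma), on 6 and 11 against 15 and 17 reads. A neighbour in the same intron at +11.21 kb (chr2:79266562-79266862) had 4.56 and 4.04 in WT and 8.52 and 4.86 in Il2ramut/mut. Its difference of 0.57 ± 0.32 rested on 1 library, since it was 0.14 without Il2ramut/mut 1. The difference at the promoter of Itga4 was 0.01 ± 0.18.

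**Figure D4:**
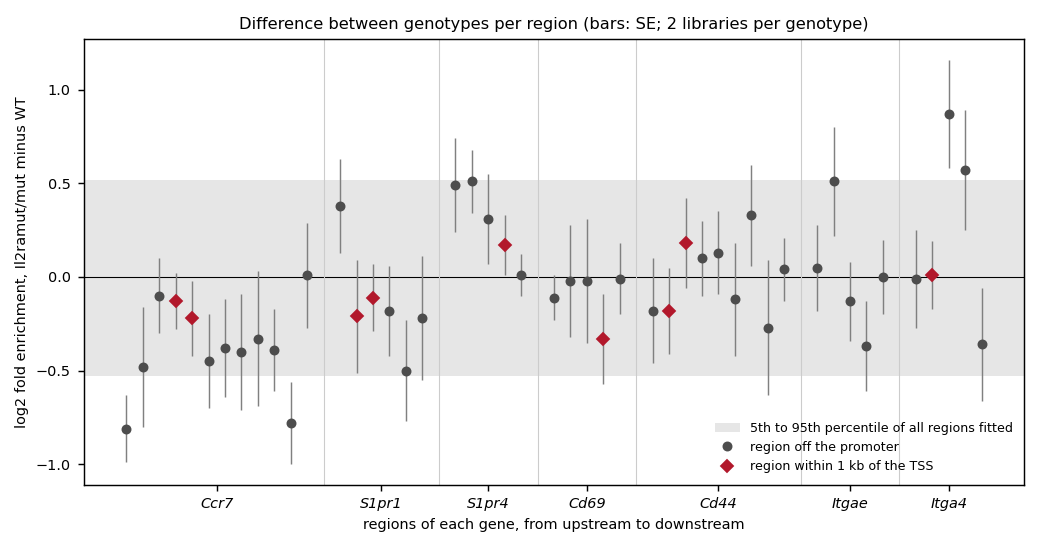
Difference in log2 fold enrichment, Il2ramut/mut minus WT (y axis), of the 47 OCRs called in all 4 libraries, grouped by gene (x axis), with the SE as bars and the range of 90% of all OCRs of the genome, -0.53 to 0.52, in grey. Ccr7 OCRs lie below 0 except 1, Cd69 OCRs at or below it and S1pr4 OCRs at or above it. The OCRs at +4.07 and +11.21 kb of Itga4 lie above the grey band, the latter at 0.14 and so inside it without Il2ramut/mut 1.

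Fixed words of transcription factor families were counted on both strands in the 300 bp around the summit, in the 47 OCRs and in 38281 OCRs of assembled chromosomes called in all 4 libraries. The RUNX word TGTGGT was present in 48.9% of the members and 25.2% of all such OCRs, the ETS word GGAAGT in 44.7% and 30.4% and the KLF word CNCACCC in 36.2% and 29.2%. The E-box word CACCTG was in 25.5% and 22.8%, the STAT word TTCNNNGAA in 12.8% and 8.77%, the FOXO word GTAAACA in 10.6% and 3.99% and the AP-1 word TGANTCA in 8.51% and 10.7%. The word of NF-kB (1.71% of all) and the SMAD word GTCTAGAC (0.306% of all) were in none of the 47. KLF and RUNX words can share bases. A match is a description of the letters and not a bound site.

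FOXO words lay in 2 OCRs of Itgae and in 1 each of Ccr7, S1pr1 and Cd44. At S1pr1 it stood in the stretch at -14.25 kb printed above. Among the OCRs seen in both Il2ramut/mut libraries only, the stretches of S1pr1 at -19.93 kb and S1pr4 at -5.36 kb also held it. Those of S1pr1 at +22.55 kb and Cd44 at +73.31 kb did not, nor did any stretch of the OCRs seen in both WT libraries only. The share of such OCRs with the word over the genome was not counted. RUNX words were most frequent at Cd69, in 4 of 5 OCRs, the one at -9.13 kb among them, and at Itgae, in 4 of 5. The Ccr7 OCR at -15.98 kb held an AP-1 word in the printed stretch and that of Itga4 at +4.07 kb held none of the words there.

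Other genes of the same paths were read at their promoters. All 17 listed genes of LN entry had an OCR in all 4 libraries, from Ccr6, a chemokine receptor of mucosal homing, at a mean percentile of 44.3, to Ccr7 at 97.6. Of 15 genes of egress and retention 11 had one, at percentiles of 83.8 to 99.1. Sphk2, which makes S1P, stood at 99.1 and Klf2, an activator of S1pr1, at 98.8. The promoters of the receptors S1pr3 and S1pr5 had no peak, and those of Sphk1 and of Spns2, an S1P exporter of endothelium, had one in WT 2 only. All 10 listed genes of integrin and migration signalling had an OCR in all 4 libraries, with Rassf5 at 99.1. Of 8 ligands that other cells make only Cxcl12 and Icam1 had one in all 4, while Ccl19, Cxcl13, Glycam1 and Vcam1 had no peak. Of 4 genes of tissue retention, Itgav and Cdh1 had one in all 4 libraries, and Itga1 and Itgae in 1 library each.

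In none of these lists did a promoter OCR pass an adjusted p of 0.05 in limma. Over the genome, 4.37% of OCRs had an unadjusted limma p under 0.05 with lower and 4.18% with higher values in Il2ramut/mut. Below it lay Ccr6 (-0.67 ± 0.20), 1 of 17 promoters of entry genes. Tln1, the gene of the integrin activator talin (-0.29 ± 0.12), was 1 of 10 of integrin and migration signalling. Both had an adjusted p of 0.582. None of the 11 of egress and retention did so. Among the 7 T cell genes it was 1, the promoter of Il2ra itself, with 21.3 and 29.8 in WT and 13.5 and 13.6 in Il2ramut/mut (-0.83 ± 0.17, unadjusted p = 0.00191, adjusted p = 0.582, limma). Of the 4 genes of other cells with a promoter OCR in all 4 libraries, Cd8b1 (-0.71 ± 0.24) and Pecam1 (-0.61 ± 0.22) were also below an unadjusted limma p of 0.05. Their part in the values of the 7 loci was not tested.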

How the data were processed

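LN Treg cells of 2 WT and 2 Il2ramut/mut mice were profiled by ATAC-seq. Per the methods and labels, the authors trimmed the reads with Trim Galore (0.3.7), aligned them to mm10 with BWA (0.7.13), removed duplicated and mitochondrial reads with Picard (1.92) and SAMtools (0.1.19), shifted the reads and called peaks per library with MACS2 (2.1.0). For their own OCRs they then kept peaks that were reproducible between replicates by an Irreproducible Discovery Rate. That step was not applied here, so the OCRs of this report include peaks listed in a single library. The deposited lists give for each peak a fold enrichment (a ratio), the −log10 of its p and of its q, and a score made from the q. Depth is unknown.

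Peaks overlapping by at least 1 bp were merged over the genome, and OCRs were placed on GENCODE vM21 (GRCm38). The value of a library is that of its strongest peak in the OCR. Percentiles are the mid-ranks of −log10 p within a library. Log2 fold enrichments of OCRs called in all libraries were quantile normalised and fitted with limma (3.58.1, R 4.3.3; moderated with a trend, all 4 libraries, no pseudocount), with Benjamini-Hochberg adjustment over all OCRs. P-values and SEs rest on the spread between 2 libraries per genotype, which limma draws towards a trend shared by all OCRs. They are therefore not the spread of the libraries at 1 OCR alone. The limma step was tested on simulated data with log2 changes of 2 and a common spread for all OCRs, and the merging, percentile and word steps on made-up peaks and words. That simulation cannot show how often limma would find smaller differences, such as those at the 7 loci. Named by a fixed rule are each promoter OCR, the strongest OCR off the promoter called in all libraries, OCRs with peaks in 1 genotype only, and OCRs whose percentiles do not overlap and differ by at least 10 points. OCRs named for an unadjusted p were added after seeing their values. Some listed genes are not reported by name here. Members and lists were chosen with earlier results of these data known. Alternatives were other thresholds, overlaps, windows, scalings, a replicate block and leaving out each library. Python (3.11.15), pandas (2.3.3) and matplotlib (3.10.9) were used.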

Additional observations from a re-analysis of the deposited data

How the results depend on the processing

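No OCR of the 7 loci passed the limma threshold with a replicate block (0, and 0 in the genome), with no normalisation, with log2 of −log10 p, with only fold enrichments of at least 5, with a −log10 q of at least 3, or without any 1 library. With median centring 1 did, the Ccr7 OCR at -15.98 kb. Over the genome 318 OCRs passed with median centring, 14 with no normalisation, 5 with fold enrichments of at least 5 and 1 with a −log10 q of at least 3, and the cause was not tested. Same-numbered libraries did not deviate together (correlation 0.0109 over 38426 OCRs). With 2 libraries per genotype this cannot show whether samples were handled in pairs. The block changed no call.

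The −log10 q threshold of 3 left 3 of 99 OCRs with peaks in both WT libraries only and 3 in both Il2ramut/mut libraries only, beside 1.89% and 4.22% of the genome. Windows of 5 kb held 31 OCRs called in all libraries, 3 in WT only, 1 in Il2ramut/mut only and 4 with higher percentiles in WT, and windows of 50 kb held 79 called in all libraries, 10 in WT only, 13 with higher percentiles in WT and 17 in Il2ramut/mut. These follow the number of OCRs in the window.

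Leaving out 1 library at a time, which leaves 1 library in a group that limma takes to vary like the other, gave 48 to 53 OCRs called in all libraries. It gave 10 to 14 in WT only, 4 to 10 in Il2ramut/mut only, 10 to 23 with higher percentiles in WT and 10 to 24 in Il2ramut/mut, with the most WT-higher ones without WT 1 (23) and the most Il2ramut/mut-higher ones without WT 2 (24). Fewer libraries make both rules easier to meet. In the genome 22.1% to 33.5% were then higher in WT and 35.8% to 49% in Il2ramut/mut, and 4.93% to 20.4% had peaks in WT only and 5.81% to 27.1% in Il2ramut/mut only. In WT only, the members lay below the genome without WT 1 (14 of 101 OCRs, genome 20.4%) and without WT 2 (10 of 101, 18%). They lay above it without Il2ramut/mut 1 (12 of 102, 4.93%) and without Il2ramut/mut 2 (12 of 97, 6.09%). In Il2ramut/mut only, they lay below it without Il2ramut/mut 1 (10 of 102, 27.1%) and without Il2ramut/mut 2 (6 of 97, 22.6%). Without WT 1 (4 of 101, 5.81%) and without WT 2 (6 of 101, 7.42%) they were also below it. The differences at the Ccr7 promoter (-0.28 to 0.02, positive without WT 1) and at the Cd69 OCR at -9.13 kb (-0.23 to 0.01, positive without Il2ramut/mut 2) changed sign. So did those that were near 0 as reported, at S1pr4 +3.64 kb (-0.07 to 0.10), Cd44 +52.55 kb (-0.06 to 0.15), Itgae +47.77 kb (-0.22 to 0.22), Itga4 -7.04 kb (-0.28 to 0.18) and the Itga4 promoter (-0.05 to 0.06), over all alternatives of the fit.

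At Ccr7, 10 to 12 OCRs of 12 to 14 were lower in Il2ramut/mut under all 11 alternatives of the fit. Their medians were -0.47 to -0.24 on fold enrichment and -0.54 with log2 of −log10 p, which is another scale. The difference at -15.98 kb ranged from -0.97 to -0.62 on fold enrichment and was -1.07 on the other scale. At S1pr4 the median stayed between 0.18 and 0.38 on fold enrichment and was 0.45 on the other scale. In the central 150 bp, FOXO words were in 3, KLF words in 6 and ETS words in 13 of the 47 OCRs (6.38%, 12.8% and 27.7%, beside 2.02%, 16.6% and 19.8% of all), so that for KLF the members lay below all OCRs there and above them in 300 bp. Depth sets which weak sites are listed, so absence of a peak is not closed chromatin.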
